A study of Mus musculus with 6 samples.

Results

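Interferon regulatory factors (IRFs) are the transcription factors that switch on interferon genes and the genes that interferons induce. The rows of Irf1, Irf2, Irf3, Irf4, Irf5, Irf7, Irf8 and Irf9 were taken by symbol, 8 of 55367 rows in the count table, and followed across all libraries. The cells were FRCs (fibroblastic reticular cells) of a mouse line, which belong to the stroma that scaffolds lymph nodes, and their poly(A) RNA was sequenced. The cells were kept for 96 h in 1 of 3 media, with 2 libraries per medium and 6 in all. The first medium was conditioned by 4T1 cells and the second by 67NR cells, both mouse mammary carcinoma lines, of which 4T1 is known to metastasise and 67NR is not. The third, called control medium here, was conditioned by FRCs themselves. Every medium was conditioned for 24 h, supplemented with 2% serum and replaced every 48 h. None of the 3 groups received medium that no cells had conditioned, so what tumour cells release, what FRCs release and what either consumes cannot be told apart. The FRC line is a single line without further description in the labels, and nothing states that the libraries of a medium came from separate cultures. The p-values therefore measure the spread between these libraries, which may be technical.

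IRFs share a DNA-binding domain that recognises repeats of GAAA, the core of the interferon-stimulated response element (ISRE). IRF3 is made constitutively and is phosphorylated when cells sense viral RNA, DNA or lipopolysaccharide, upon which it drives interferon beta. Secreted interferon then acts through its receptor, JAK kinases and ISGF3, a complex that holds STAT2 and IRF9, and among the genes ISGF3 induces are IRF7, which amplifies the response, and IRF9 itself. IRF1 is induced by interferon gamma through the gamma-activated site (GAS) and through NF-kB. IRF2 competes with IRF1 for the same DNA, IRF5 acts downstream of Toll-like receptors, and IRF4 and IRF8 work mainly in lymphoid and myeloid cells.

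The start regions of the 4 members that changed in any comparison below are shown to set their DNA side by side. Each is a RefSeq window on GRCm38.p6, from 250 bases before the annotated start to 50 bases after it, written 5′ to 3′ on the gene's strand. All 8 members had a window, and for genes with several starts the most upstream is printed. Capitals mark matches, on either strand, to the ISRE core (GAAA, any 2 bases, GAAA) or to the GAS TTCNNNGAA. These motifs do not overlap each other in the windows printed.
Irf7, chr7:141266375-141266674, minus strand: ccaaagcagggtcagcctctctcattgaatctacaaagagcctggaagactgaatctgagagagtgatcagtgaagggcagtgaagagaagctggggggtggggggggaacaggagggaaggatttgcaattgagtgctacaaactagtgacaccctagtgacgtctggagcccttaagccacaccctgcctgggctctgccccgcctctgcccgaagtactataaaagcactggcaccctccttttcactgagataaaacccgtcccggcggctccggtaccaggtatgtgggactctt
Irf9, chr14:55603735-55604034, plus strand: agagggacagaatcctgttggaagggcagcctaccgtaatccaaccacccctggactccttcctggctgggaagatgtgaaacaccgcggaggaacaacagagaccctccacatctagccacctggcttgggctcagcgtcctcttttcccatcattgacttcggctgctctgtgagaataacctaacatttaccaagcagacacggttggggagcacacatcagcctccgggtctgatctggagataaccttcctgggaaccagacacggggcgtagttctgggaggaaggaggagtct
Irf1, chr11:53769764-53770063, plus strand: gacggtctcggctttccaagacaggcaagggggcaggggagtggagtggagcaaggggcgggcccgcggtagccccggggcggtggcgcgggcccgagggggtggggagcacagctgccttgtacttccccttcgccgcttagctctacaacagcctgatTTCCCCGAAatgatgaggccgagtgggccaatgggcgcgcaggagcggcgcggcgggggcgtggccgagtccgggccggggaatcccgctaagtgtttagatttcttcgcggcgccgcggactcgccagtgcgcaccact
Irf2, chr8:46739495-46739794, plus strand: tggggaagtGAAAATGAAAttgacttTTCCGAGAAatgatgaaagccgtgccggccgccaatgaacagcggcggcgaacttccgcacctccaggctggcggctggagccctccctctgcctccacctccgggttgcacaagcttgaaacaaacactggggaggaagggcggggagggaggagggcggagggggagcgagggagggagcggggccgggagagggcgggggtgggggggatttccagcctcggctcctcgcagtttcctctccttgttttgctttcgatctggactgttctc
The Irf1 window held 1 GAS match, TTCCCCGAA, beginning at position -90 from the start. The Irf2 window held 1 ISRE core, GAAAATGAAA, and 1 GAS match, TTCCGAGAA, beginning at positions -241 and -224. No match to either motif lay in the Irf7 window or in either window of Irf9, which says only that these letters are not in those 300 bases. Of all 32851 windows of this length, 3.44% held an ISRE core and 8.3% a GAS. Counted per gene over all its windows, 1 of the 8 members (12.5%) had an ISRE core and 3 of them (37.5%) a GAS, against 3.99% and 9.55% of all 27025 genes with a window. The third member with a GAS was Irf8, which had 2 matches.

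Depth was 13.6 M to 21.8 M counts per library, and 1 count corresponded to 0.0463 to 0.0743 CPM (counts scaled to 1 M per library). The Pearson correlation of log CPM across genes was at least 0.992 between the libraries of a medium and at most 0.979 between media. Of the 11 FRC and fibroblast markers listed, 8 had counts, whereas Ccl19, Ccl21a and Thy1 had 0 counts in every library. Over all libraries Pdpn had 97.1 to 130 CPM, Vcam1 200 to 647, Col1a1 6720 to 15600, Col1a2 only 5.2 to 15.7 and Il7 0.788 to 1.63 CPM. The markers were not steady. In 4T1 medium over control 3 of the 8 rose, among them Vcam1 (log2 1.61), and 4 fell, among them Col1a1 (log2 -1.0). Of all genes 19.9% rose and 19.2% fell there. A lower level in such bulk RNA cannot be told apart from fewer cells that express the gene. Because both tumour media are set against the same 2 control libraries, those comparisons are not independent of each other.

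Irf7 and Irf9, which ISGF3 induces, were highest in 67NR medium, intermediate in 4T1 medium and lowest in control medium. Irf1 rose in both tumour media, Irf2 rose slightly in 67NR medium, Irf3 and Irf5 passed no test, and Irf4 and Irf8 were at or near 0 counts. Of the 8 members, 6 passed the filter on low counts and entered the tests across 15055 genes (edgeR quasi-likelihood, Benjamini-Hochberg adjusted p under 0.05). In 4T1 against control medium 3 of the 6 were higher and none lower, where 39.1% of all genes passed, 19.9% being higher and 19.2% lower. In 67NR against control medium 4 were higher and none lower, where 27.6% of all genes passed, 13% being higher and 14.6% lower. In 4T1 against 67NR medium none was higher and 2 were lower, where 43.4% of all genes passed, 23.5% being higher and 19.9% lower. The same counts were obtained at an unadjusted p under 0.05, with DESeq2 and with limma-voom. Counts of 2 to 4 among 6 members are too few to be set apart from these shares, and the values of the single members carry the description.

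**Figure D1:**
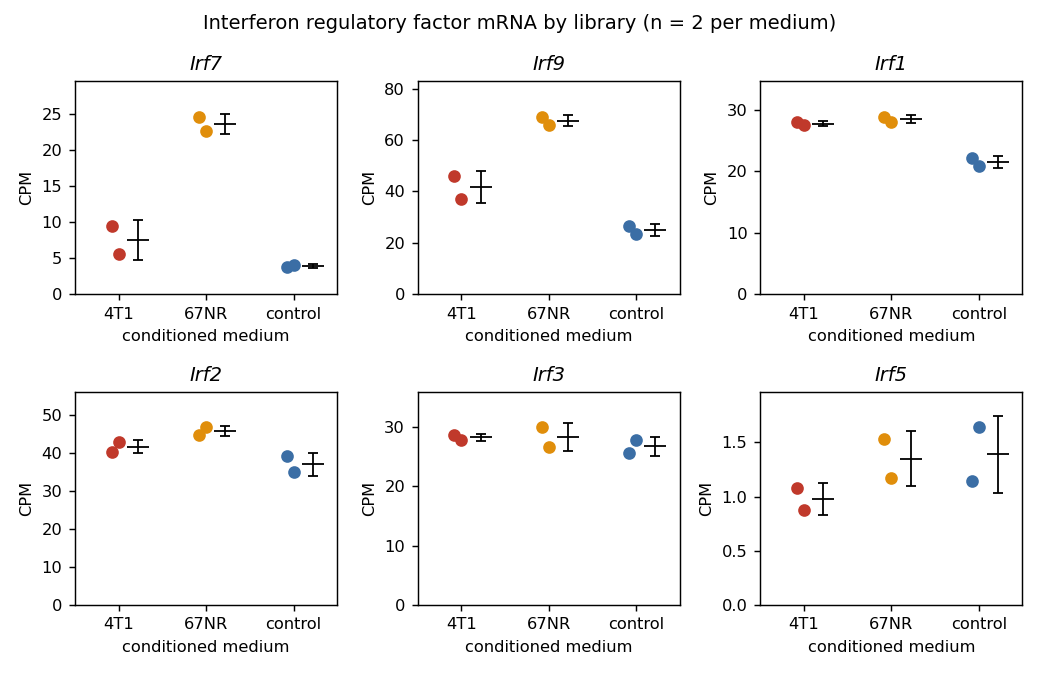
CPM of the 6 tested members in each library (points) by conditioned medium, with the mean and SD beside them (n = 2 per medium, axes from 0). The values of Irf7, Irf9, Irf1 and Irf2 do not overlap between any of the 3 media, though Irf1 is nearly level in the tumour media. Irf7 has 22.6 and 24.6 CPM in 67NR medium, and Irf3 stays between 25.6 and 30.0 CPM throughout.

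Irf7 (GRCm38 chromosome 7, 141262706 to 141266481, minus strand), the factor that amplifies type I interferon production, had 9.46 and 5.50 CPM in 4T1 medium, 24.6 and 22.6 CPM in 67NR medium, and 3.69 and 4.09 CPM in control medium. The ranges of the 3 media did not overlap, and the widest gap between libraries of the same medium was in 4T1 medium. With 2 libraries per medium such separation is a description, and the share of all genes that show it is not given here. In 67NR medium Irf7 rose 6.1-fold over control medium (95% interval 4.55 to 8.18, log2 2.61, SE 0.20, edgeR adjusted p = 7.34e-07). In 4T1 medium it rose 1.9-fold (1.34 to 2.69, log2 0.93, SE 0.23, edgeR adjusted p = 0.00672). That second call ended without 4T1 replicate 1 (log2 0.50, edgeR adjusted p = 0.0534) and without control replicate 1 (log2 0.83, edgeR adjusted p = 0.0734), and without 4T1 replicate 2 the value was log2 1.29. Its adjusted p ranged from 1.92e-06 to 0.0734 over the alternatives. Set directly against 67NR medium, Irf7 in 4T1 medium was lower, at 0.312 times the level (0.24 to 0.405, log2 -1.68, SE 0.17, edgeR adjusted p = 4.91e-06), which held without any single library (log2 -2.11 to -1.32).

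Irf9 (chromosome 14, 55603571 to 55610030, plus strand), the DNA-binding subunit of ISGF3, had 46.0 and 37.2 CPM in 4T1 medium, 69.1 and 65.9 CPM in 67NR medium, and 26.5 and 23.3 CPM in control medium. As with Irf7, the media kept apart without overlap. It rose 1.66-fold in 4T1 medium (1.41 to 1.95, log2 0.73, SE 0.11, edgeR adjusted p = 0.00015) and 2.7-fold in 67NR medium (2.31 to 3.15, log2 1.43, SE 0.10, edgeR adjusted p = 5.51e-07). Between the tumour media it was lower in 4T1 medium, at 0.613 times the level in 67NR medium (0.53 to 0.711, log2 -0.70, SE 0.10, edgeR adjusted p = 6.83e-05). These 3 calls held under each alternative, including each library left out. On the same strand Rnf31, a subunit of a ubiquitin ligase complex, shares 123 exon bases with Irf9. Rnf31 rose as well, by 0.26 on the log2 scale in 4T1 medium and 0.47 in 67NR medium (edgeR adjusted p = 0.0341 and 0.00119). The share of Irf9 reads from those bases was not tested. Phrf1, which shares 45 exon bases with Irf7 on the opposite strand, did not pass in any comparison (log2 0.11, -0.05 and 0.16 for 4T1 against control, 67NR against control and 4T1 against 67NR).

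**Figure D2:**
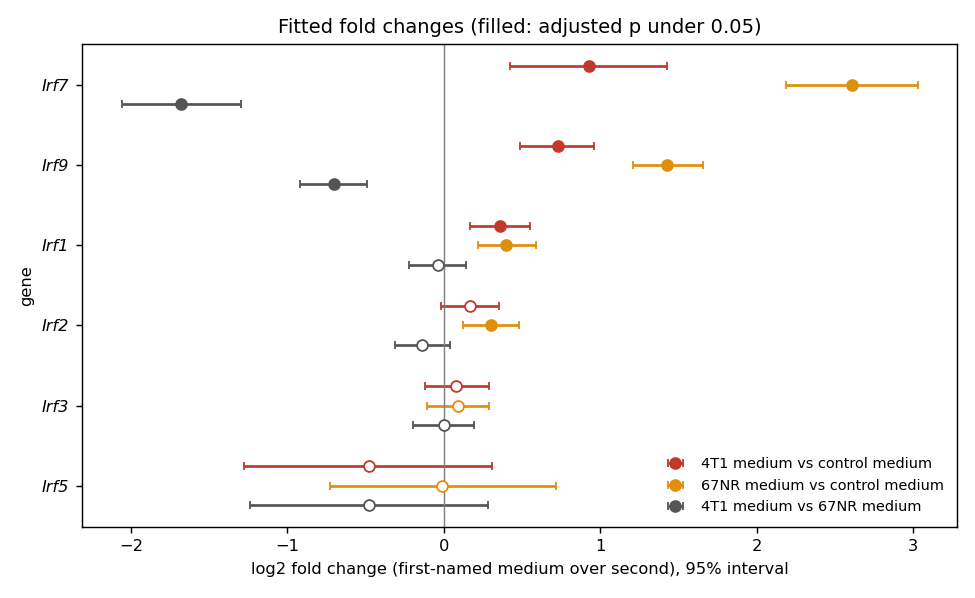
Log2 fold change of the 6 tested members with its 95% interval in the 3 comparisons, the first-named medium over the second. Filled points passed (edgeR adjusted p under 0.05). Irf7 and Irf9 have filled points in all 3 comparisons, and the 4T1 against 67NR interval of Irf1 spans 0, from -0.22 to 0.14.

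Irf1 (chromosome 11, 53770014 to 53778374, plus strand), the activator induced by interferon gamma, interferon beta and NF-kB, had 28.0 and 27.5 CPM in 4T1 medium, 28.9 and 28.0 CPM in 67NR medium, and 22.2 and 20.8 CPM in control medium. All 4 tumour-medium libraries lay above both control libraries, and the tumour media lay next to each other. It rose 1.29-fold in 4T1 medium (1.13 to 1.47, log2 0.36, SE 0.09, edgeR adjusted p = 0.00524) and by a log2 change of 0.40 in 67NR medium (1.16 to 1.5 times, SE 0.09, edgeR adjusted p = 0.00378). Without control replicate 2 the 4T1 value was log2 0.32 and narrowly missed the threshold (edgeR adjusted p = 0.0506, range 0.00348 to 0.0506 over the alternatives). No difference between 4T1 and 67NR medium was detected (log2 -0.04, interval -0.22 to 0.14, edgeR adjusted p = 0.757), an interval that leaves room for 0.861 to 1.1 times. Gm17334, a gene annotated on the opposite strand with 135 exon bases in common with Irf1, had 13 counts in 4T1, 10 in 67NR and 1 in control medium, summed over libraries, against 919, 1199 and 707 counts of Irf1.

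Irf2 (chromosome 8, 46739732 to 46847458, plus strand), which competes with IRF1, had 40.4 and 42.9 CPM in 4T1 medium, 44.8 and 46.8 CPM in 67NR medium, and 39.1 and 34.9 CPM in control medium. The media were ordered as for Irf7 and Irf9 and did not overlap, but the steps were small. It passed in 67NR medium (1.23-fold, interval 1.09 to 1.39, log2 0.30, SE 0.08, edgeR adjusted p = 0.0154) and not in 4T1 medium (1.12-fold, 0.989 to 1.27, edgeR adjusted p = 0.139). Without 67NR replicate 1, 67NR replicate 2 or control replicate 2 the 67NR value was log2 0.33, 0.27 and 0.23 and missed the threshold in each fit, which left a single library in a medium (edgeR adjusted p = 0.0644, 0.129 and 0.165, range 0.00497 to 0.165 over the alternatives). Between 4T1 and 67NR medium Irf2 did not pass (log2 -0.14, interval -0.31 to 0.04, edgeR adjusted p = 0.201).

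Irf3 (chromosome 7, 44997648 to 45002848, plus strand), the constitutive sensor-activated factor, had 28.7 and 27.9 CPM in 4T1 medium, 30.0 and 26.7 CPM in 67NR medium, and 25.6 and 27.9 CPM in control medium. The 67NR range spanned the 4T1 values and overlapped the control range. The lowest 4T1 value and the highest control value lay next to each other. The intervals of its changes were 0.922 to 1.22 times for 4T1 against control, 0.927 to 1.22 times for 67NR against control and 0.871 to 1.14 times for 4T1 against 67NR medium (edgeR adjusted p = 0.512, 0.516 and 0.98). Bcl2l12, which shares 88 exon bases with Irf3 on the opposite strand, did not pass either (log2 0.06, 0.12 and -0.06 in the same order).

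Irf5 (chromosome 6, 29526625 to 29541871, plus strand), known from Toll-like receptor signalling in myeloid cells, was low, with 16 and 16 counts in 4T1 medium, 33 and 24 in 67NR medium, and 22 and 22 in control medium. These counts correspond to 1.08 and 0.872 CPM in 4T1 medium, 1.53 and 1.17 CPM in 67NR medium, and 1.14 and 1.64 CPM in control medium. No comparison passed, and the intervals were wide, from 0.413 to 1.24 times for 4T1 against control, 0.605 to 1.64 times for 67NR against control and 0.424 to 1.21 times for 4T1 against 67NR medium. Changes within these intervals are not excluded with such low counts and 2 libraries per medium. The gene also shares 411 exon bases with Tnpo3, on the opposite strand, which did not pass in 4T1 against control medium (log2 0.11, edgeR adjusted p = 0.251), was lower in 67NR than in control medium (log2 -0.21, edgeR adjusted p = 0.045) and was higher in 4T1 than in 67NR medium (log2 0.32, edgeR adjusted p = 0.00269).

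Irf4 (chromosome 13, 30749226 to 30766976), a factor of lymphocytes, had 0 counts in all 6 libraries. With none counted, the limit is 3 counts in a medium, or 0.0905 CPM in 4T1, 0.0712 CPM in 67NR and 0.0917 CPM in control medium, for counting error only. Irf8 (chromosome 8, 120736358 to 120756694), a factor of monocytes, dendritic cells and B cells, had 4 counts (0.218 CPM) in 4T1 replicate 2 and 0 in the other 5 libraries. Neither was tested. Their DNA-binding partners were also low, since of 7 listed (Spi1, Spib, Batf, Batf2, Batf3, Ikzf1 and Ikzf3) none passed the filter. Spi1, Ikzf1 and Ikzf3 had 0 counts in every library, whereas Batf2 had 1 to 9 counts in each and Batf had 8 and 3 in 67NR medium. Over the list of 7 the summed level was 0.541 to 0.545 CPM in 4T1, 0.535 to 0.788 CPM in 67NR and 0.26 to 0.372 CPM in control medium.

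Levels of different members were compared per kb of merged exon length. In 4T1 medium Irf3 (8.22 ± 0.172 CPM per kb), Irf9 (7.72 ± 1.15) and Irf1 (6.98 ± 0.0848) came first (mean ± SD, n = 2), and Irf9 overlapped both neighbours. In 67NR medium Irf9 led at 12.5 ± 0.418 CPM per kb and lay above every other member in both libraries, followed by Irf3 (8.23 ± 0.689), Irf1 (7.15 ± 0.148), Irf7 (6.24 ± 0.37) and Irf2 (6.19 ± 0.193), the last pair overlapping. In control medium Irf3 (7.77 ± 0.457) stood above Irf1 (5.4 ± 0.242), Irf2 (5.0 ± 0.398) and Irf9 (4.62 ± 0.429), the last 3 each overlapping the next, and Irf7 was at 1.03 ± 0.0752. Irf5 was at 0.336 to 0.478 CPM per kb on average in the 3 media. The merged length of Irf7, 3776 bases, spans its whole gene, and that of Irf2 is 7396 bases, so the order was also taken per kb of the principal transcript (1916 and 2497 bases). By that measure Irf9 led in 67NR medium (27.5 ± 0.915 CPM per kb) and in 4T1 medium (16.9 ± 2.52, overlapping Irf2 at 16.7 ± 0.727), and Irf2 led in control medium (14.8 ± 1.18). Irf9 was thus first in 67NR medium by either length. The order of Irf1, Irf2, Irf3 and Irf7 below it there depended on the length used. So did the order among Irf1, Irf2, Irf3 and Irf9 in the other media.

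**Figure D3:**
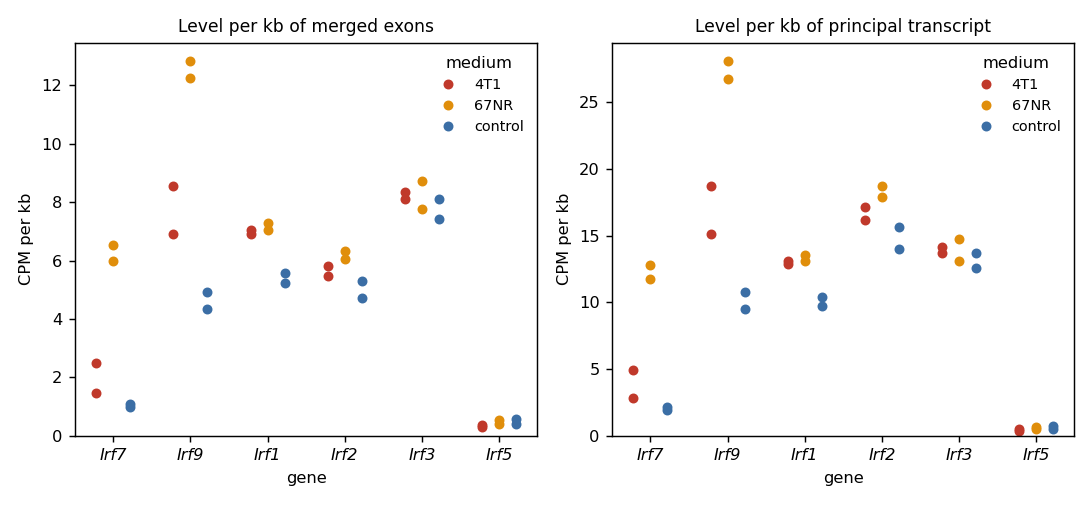
Level of the 6 tested members in each library, as CPM per kb of merged exons (left) and per kb of the principal transcript (right), coloured by medium. Irf9 in 67NR medium stands above every other member on both scales, and Irf2 moves upward from the left scale to the right.

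The interferon pathway around the factors was taken from lists. Of 12 interferons and receptor chains, 5 were tested. The 6 interferon genes listed (Ifnb1, Ifng, Ifnk, Ifne, Ifnl2 and Ifnl3) had 0 to 3 counts per library, and Ifnb1, encoding interferon beta, had 3 and 1 counts in 67NR medium and 0 in the other 4 libraries. In 4T1 against control medium 3 of the 5 receptor chains rose and 1 fell (median log2 0.42, all genes 0.01). In 67NR against control medium none passed (median log2 0.10, all genes 0.00, with 1 at an unadjusted p under 0.05 and none with DESeq2 or limma-voom). In 4T1 against 67NR medium 3 were higher and 2 lower (3 and 1 with DESeq2, median log2 0.27, all genes 0.03). Of all genes 19.9% rose and 19.2% fell in 4T1 medium over control, and 13% rose and 14.6% fell in 67NR medium over control. Between the tumour media 23.5% of all genes were higher and 19.9% lower in 4T1 medium. Ifnar2, the signalling chain of the type I interferon receptor, had 96.5 and 95.9 CPM in 4T1 medium, 48.5 and 49.7 CPM in 67NR medium, and 43.6 and 42.0 CPM in control medium. It rose by 1.17 on the log2 scale in 4T1 against control medium (SE 0.07, edgeR adjusted p = 3.45e-08).

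JAKs and STATs did not share a single pattern. Stat2, the ISGF3 subunit that binds IRF9, had 42.2 and 40.5 CPM in 4T1 medium, 81.7 and 73.3 CPM in 67NR medium, and 26.3 and 28.4 CPM in control medium, the same order of media as Irf9. It rose over control by 0.60 on the log2 scale in 4T1 medium (SE 0.09, edgeR adjusted p = 0.000137) and by 1.51 in 67NR medium (SE 0.08, edgeR adjusted p = 7.04e-08). Jak2, a kinase of the interferon gamma and cytokine receptors, was higher in 4T1 than in 67NR medium, at 386 and 456 CPM in 4T1, 59.9 and 61.5 CPM in 67NR and 57.1 and 54.6 CPM in control medium (log2 2.91 for 4T1 against control, SE 0.09, edgeR adjusted p = 3.44e-11). Stat3, the main effector of IL-6 family cytokines, also rose over control in 4T1 medium (log2 0.86), did not pass in 67NR medium (log2 0.07, edgeR adjusted p = 0.486) and was higher in 4T1 than in 67NR medium (log2 0.79). Of the 5 genes given for this group (with Jak1 and Tyk2), 4 rose in 4T1 and 1 in 67NR medium over control (3 and 1 with DESeq2), none fell in either, and between 4T1 and 67NR medium 2 were higher and 2 lower. The medians were log2 0.60, 0.16 and 0.04, against 0.01, 0.00 and 0.03 over all genes, of which 19.9% rose in 4T1 and 13% in 67NR medium over control and 23.5% were higher and 19.9% lower in 4T1 than in 67NR medium.

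Among 18 sensors, adaptors and kinases upstream of IRF3, IRF5 and IRF7, 15 were tested. Over control, 4 rose and 3 fell in 4T1 medium (median log2 0.08, all genes 0.01), and 3 rose and none fell in 67NR medium (median log2 0.07, all genes 0.00). In 4T1 against 67NR medium 5 were higher and 4 lower (median log2 0.02, all genes 0.03). These counts lie near the shares of all genes, which were 19.9% higher and 19.2% lower in 4T1 medium over control, 13% higher and 14.6% lower in 67NR medium over control, and 23.5% higher and 19.9% lower between the tumour media. Sting1, the adaptor of cytosolic DNA sensing, rose in 4T1 medium, with 53.5 and 60.3 CPM in 4T1, 23.2 and 20.6 in 67NR and 20.3 and 21.5 CPM in control medium (log2 1.45 over control, SE 0.09, edgeR adjusted p = 7.64e-08). The RNA sensors Ifih1 and Ddx58 rose in 67NR medium over control by 1.08 and 1.03 on the log2 scale, whereas in 4T1 medium Ifih1 fell (log2 -0.35) and Ddx58 did not pass (log2 0.02), and both were lower in 4T1 than in 67NR medium (log2 -1.43 and -1.01). Myd88, the adaptor of most Toll-like receptors, rose over control in both tumour media (log2 1.02 in 4T1 and 0.34 in 67NR medium) and was higher in 4T1 than in 67NR medium (log2 0.68). Tbk1, the kinase that phosphorylates IRF3, did not pass in any comparison and averaged 39.5 ± 1.63 CPM in 4T1, 39.0 ± 1.63 in 67NR and 39.1 ± 0.431 in control medium.

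Of 11 inhibitors and cofactors, 9 rose and none fell in 4T1 medium over control (7 with DESeq2, median log2 0.35, all genes 0.01), and 4 rose and none fell in 67NR medium (median log2 0.20, all genes 0.00), where 19.9% and 13% of all genes rose. Between the tumour media 2 were higher and 1 lower in 4T1 medium (median log2 0.03, all genes 0.03), where 23.5% of all genes were higher and 19.9% lower. Usp18, the protease that blocks type I interferon receptor signalling, had 4.39 and 1.85 CPM in 4T1 medium, 16.4 and 12.3 CPM in 67NR medium, and 1.14 and 1.26 CPM in control medium. Socs1, the inhibitor of JAK kinases, averaged 8.5 ± 0.311 CPM in 4T1, 10.9 ± 2.04 in 67NR and 4.25 ± 0.72 in control medium, rising over control by 1.02 and 1.39 on the log2 scale in 4T1 and 67NR medium. Irf2bpl, a relative of the corepressors that bind IRF2, rose in 4T1 medium (161 ± 1.91 CPM, against 95.9 ± 0.0993 CPM in control medium) and not in 67NR medium (95.3 ± 3.6 CPM).

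Most listed targets of ISGF3, IRF3 and IRF7 followed the order of media seen for Irf7 and Irf9. All 15 were tested. In 67NR over control medium 14 rose and none fell (12 with DESeq2, median log2 2.84, all genes 0.00), and in 4T1 over control medium 9 rose and none fell (9 with DESeq2, median log2 1.29, all genes 0.01). In 4T1 against 67NR medium 13 were lower and none higher (median log2 -1.69, all genes 0.03). Of all genes 13% rose in 67NR and 19.9% in 4T1 medium over control, and 19.9% were lower in 4T1 than in 67NR medium. Leaving out any single library, 9 to 10 rose in 4T1 medium, 12 to 14 rose in 67NR medium and 13 were lower in 4T1 than in 67NR medium. Oasl2, an antiviral protein of the oligoadenylate synthetase family with close paralogs, had 18.9 and 12.3 CPM in 4T1, 52.4 and 46.2 CPM in 67NR and 4.10 and 4.01 CPM in control medium. Ifit3 split the tumour media, with 21.9 and 12.6 CPM in 4T1, 106 and 79.5 CPM in 67NR and 15.5 and 13.6 CPM in control medium. It rose in 67NR medium (log2 2.66, SE 0.19) and did not pass in 4T1 medium (log2 0.21, SE 0.22, edgeR adjusted p = 0.491). In their start windows, 5 of the 11 targets with a window (45.5%) held an ISRE core, against 3.99% of all genes. The genes were listed as targets of factors that bind this motif, so the share is a description and no test. It was 36.4% for the listed targets of IRF1 and 37.5% for the inhibitors and cofactors, and 0.0% to 21.4% in the other lists.

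Of 15 listed targets of IRF1, 11 were tested. In 4T1 over control medium 9 rose and 1 fell (7 and 1 with DESeq2, median log2 1.43, all genes 0.01). In 67NR over control medium 9 rose and none fell (7 with DESeq2). The median there was log2 2.14, or 1.95 without Nos2, which had 1 count in 67NR medium and 0 in control. In 4T1 against 67NR medium 2 were higher and 6 lower (1 and 5 with DESeq2, median log2 -0.52, all genes 0.03). Of all genes 19.9% rose and 19.2% fell in 4T1 medium, 13% rose in 67NR medium, and 23.5% were higher and 19.9% lower in 4T1 than in 67NR medium. Psmb8, an immunoproteasome subunit, was higher in both tumour media than in control medium, at 5.54 and 3.81 CPM in 4T1, 6.25 and 5.50 CPM in 67NR and 1.51 and 0.892 CPM in control medium, and did not pass between the tumour media (log2 -0.35, edgeR adjusted p = 0.215). Gbp3, a guanylate-binding protein, averaged 5.58 ± 2.72 CPM in 4T1, 18.3 ± 4.1 in 67NR and 1.95 ± 0.548 CPM in control medium. It rose over control in 4T1 medium (log2 1.43, edgeR adjusted p = 0.00662) and in 67NR medium (log2 3.19, edgeR adjusted p = 4.72e-06), and was lower in 4T1 than in 67NR medium (log2 -1.75, SE 0.25, edgeR adjusted p = 7.26e-05). Nos2, inducible nitric oxide synthase, had 114 counts in 4T1, 1 in 67NR and 0 in control medium and was at least 37.5-fold higher in 4T1 than in control medium, taking 3 counts as the most that control medium could hide. Il15, a cytokine for lymphocytes, fell in 4T1 medium, to 0.488 ± 0.0742 CPM, against 2.37 ± 0.0962 CPM in control medium (log2 -2.28, SE 0.34, edgeR adjusted p = 0.000156). In 67NR medium it averaged 2.49 ± 0.12 CPM and did not pass over control (log2 0.07, edgeR adjusted p = 0.871), and 4T1 medium was lower than 67NR medium (log2 -2.35). Some genes of this list are also induced by ISGF3 or by NF-kB.

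**Figure D4:**
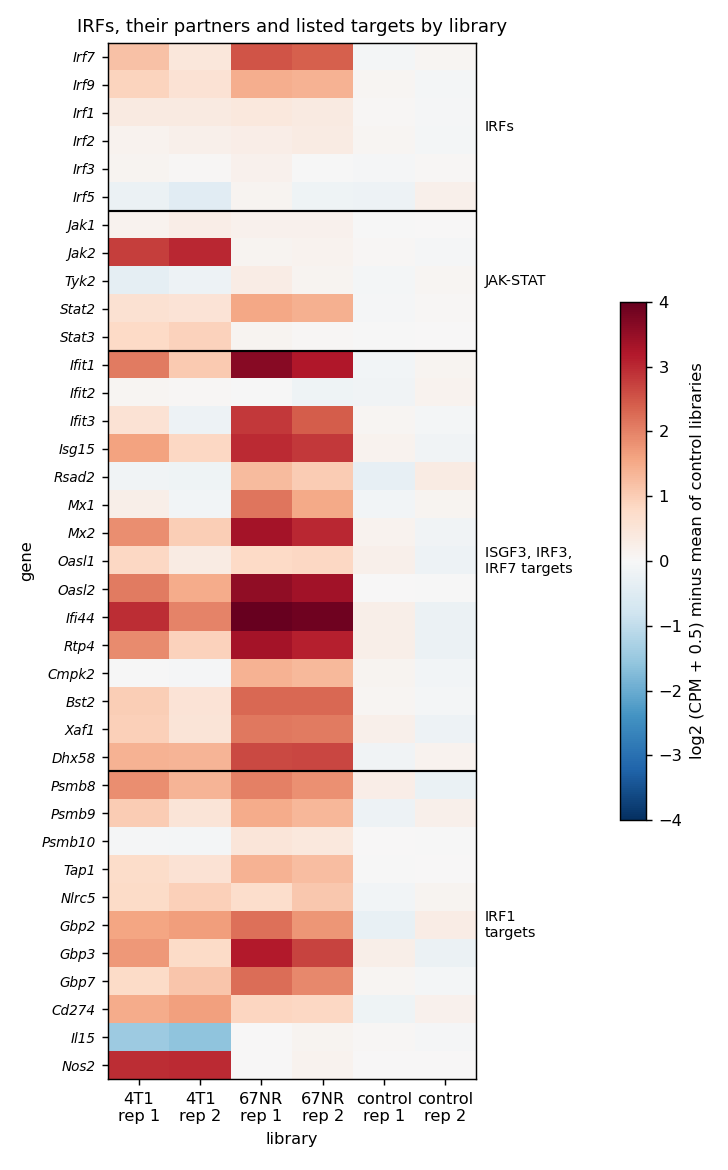
Level of the tested IRFs, JAK-STAT genes and listed targets in each library, as log2 (CPM + 0.5) minus the mean of the control libraries, with colours limited to -4 and 4. The 67NR columns are darkest for Irf7, Irf9, Stat2 and most ISGF3 targets, while Jak2 and Nos2 are dark in the 4T1 columns. For many ISGF3 targets 4T1 replicate 1 is darker than replicate 2.

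The libraries of 4T1 medium differed in this group of genes. Irf7 was 1.72 times and Irf9 1.24 times as high in replicate 1 as in replicate 2. Irf5, with 16 counts in each library, also had a ratio of 1.24, and the ratios of Irf1, Irf2 and Irf3 were 1.02, 0.94 and 1.03. All 15 ISGF3, IRF3 and IRF7 targets were higher in replicate 1 (median log2 difference 0.51 on CPM + 0.5), against 47.3% of all 15055 genes. Some were nearly level, such as Ifit2 (41.2 and 41.1 CPM), Cmpk2 (0.338 and 0.327 CPM) and Rsad2, with 1 count in each 4T1 library. In 67NR medium 13 of the 15 were also higher in replicate 1 (median 0.18), against 52.2% of all genes (median 0.01). In control medium 10 of the 15 were higher in replicate 1 (median 0.18), where the median over all genes was 0.0. Replicate 1 of 4T1 medium had 14.5 M counts and replicate 2 had 18.2 M. What lies behind the difference was not tested.

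The genes most like Irf7 and Irf9 across the 6 libraries were found by the root mean square difference of log2 CPM, each gene centred on its own mean, over 13606 other genes of at least 1 CPM. These 2 members were used because they alone reached 2-fold in a comparison they passed. Nearest to Irf7 were Bst2 (difference 0.172), Phf11d (0.178) and Pf4 (0.197). Bst2, a membrane protein that tethers virus particles, averaged 29.3 ± 6.55 CPM in 4T1, 84.7 ± 0.377 in 67NR and 16.8 ± 1.41 in control medium. Pf4, a chemokine best known from platelets, was low, at 1.07 ± 0.206, 3.8 ± 0.132 and 0.661 ± 0.0935 CPM in the same order. Nearest to Irf9 were Plekha4 (difference 0.0721), Mndal (0.0727) and Tap1 (0.0887). Tap1, a peptide transporter subunit for MHC class I, averaged 28.7 ± 1.93 CPM in 4T1, 45.5 ± 3.25 in 67NR and 17.9 ± 0.0896 in control medium. With 3 media and 2 libraries each, many genes can share such a pattern, and the ranking is a description.

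Since IRF4, IRF5, IRF7 and IRF8 are abundant in leukocytes, leukocyte markers were set beside them. Of 14 markers 7 had 0 counts in every library, among them Cd3e, Adgre1 and Siglech, and Ptprc, the pan-leukocyte marker, had 1 count in a single 67NR library. The summed level of the list was 4.96 to 5.0 CPM in 4T1, 11.7 to 12.8 CPM in 67NR and 7.01 to 8.47 CPM in control medium. Lyz2, a lysozyme of myeloid cells, gave the largest part and averaged 2.04 ± 0.202, 8.99 ± 0.191 and 5.25 ± 0.884 CPM in that order, while Csf1r and Cd68 did not pass. The sum was highest in 67NR medium and lowest in 4T1 medium, and 11 of the 14 markers were under the filter on low counts. The 10 epithelial and carcinoma markers summed to 2.02 to 3.24 CPM in 4T1, 6.57 to 6.76 in 67NR and 8.32 to 9.55 CPM in control medium, with Epcam and Cldn4 at 0 throughout. The 6 endothelial markers summed to 0.763 to 1.01, 3.31 to 3.71 and 2.34 to 3.57 CPM. The part of these cell types in the values of the IRFs was not tested.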

How the data were processed

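The deposited values are whole-number read counts, 1 row per gene symbol, in a full table and in one that the authors filtered. Per the labels' protocols, a directional kit was used on 500 ng of RNA. The submitters' processing notes name Subread, DESeq2 1.32.0 and mm10. The strand setting of the counting and the alignment settings are not given in these sources, so overlapping genes are uncertain. From the full table, 15055 genes passed edgeR's filterByExpr (version 4.0.16, minimum count 10 and minimum total 15). Scaling used trimmed means of M-values. A quasi-likelihood fit of all 6 libraries gave log2 fold changes, F tests and Benjamini-Hochberg adjusted p-values over all genes tested, with a threshold of 0.05. Each standard error was derived from the log2 fold change and its F statistic, and 95% intervals use 3 residual plus 9.62 prior degrees of freedom. CPM use scaled library totals, and floors and count limits cover counting error only. Positions and exon lengths come from GENCODE M21 (GRCm38, the assembly of mm10), which held 53365 of the 55367 symbols. Sequences come from RefSeq. The listed symbols Mb21d1 and Tmem173 were found as Cgas and Sting1 through RefSeq synonyms.

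All 8 members were named whatever their values, with up to 3 called genes per list and comparison of at least 1 CPM in a medium, chosen by size of change, of which the text gives part. Ifnb1, Tbk1, the markers and the overlapping neighbours were named after their values were seen. Some listed genes are not reported here. The members and lists were chosen with earlier results of these data known. On simulated counts the share of log2 changes of 0.5 that was recovered was 74.6% for 4T1 against control, 70.5% for 67NR against control and 74.4% for 4T1 against 67NR medium, with 3.8%, 3.21% and 6.88% of calls false. The simulation gave every gene the same spread, took all means from control medium and changed only genes above 1 CPM. These shares therefore need not hold for single members. Alternatives were other scalings, filters and tests, a replicate block, each library left out, and fits of the groups compared alone. R 4.3.3, limma 3.58.1, DESeq2 1.42.0 and Python 3.11.15 with matplotlib 3.10.9 were used.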

Additional observations from a re-analysis of the deposited data

Results flagged for a closer look

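The effect of tumour medium differed between the 2 carcinoma lines for Irf7 and Irf9, by the direct comparison of 4T1 with 67NR medium in the fit across all genes. Irf7 was lower in 4T1 than in 67NR medium by a log2 difference of -1.68 (edgeR adjusted p = 4.91e-06), and Irf9 by -0.70 (edgeR adjusted p = 6.83e-05), with both 4T1 libraries below both 67NR libraries for each gene. With 2 libraries per medium, no library could be examined as an outlier.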

How the results depend on the processing

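The number of members called stayed within 1.5 times under every alternative, at 2 to 3 in 4T1 against control, 3 to 4 in 67NR against control and 2 in 4T1 against 67NR medium. Of the refitted member values, 237 kept their direction and side of the threshold, 6 lost the call and 9 changed sign. The lost calls are those of Irf7 and Irf1 in 4T1 medium and of Irf2 in 67NR medium given above, each from leaving out 1 library. The values that changed sign were all uncalled. Irf5 in 67NR against control medium was at log2 0.002 with DESeq2 size factors, 0.0043 with limma-voom and -0.28 to 0.24 without a library. Irf1 in 4T1 against 67NR medium was at 0.0033 with library totals alone. Irf3 in 4T1 against 67NR medium was at 0.04 with library totals alone and -0.09 to 0.08 without a library, and in 67NR against control medium -0.0012 to 0.17. The count of all genes called in 67NR against control medium was 4150 and ranged from 2227 to 5336 without a library, falling to 2227 and 2364 without 67NR replicates 1 and 2 and to 2459 and 2406 without control replicates 1 and 2, where the spread of the single library left was taken from the other media. In 4T1 against 67NR medium 1 to 2 targets of IRF1 were higher without a library. Ranks per length on the principal transcript, a length added after the data had been seen, were 1 for Irf9, 2 for Irf2, 3 for Irf3 and 4 for Irf1 in 4T1 medium, the same in 67NR medium with Irf7 at 5, and 1 for Irf2, 2 for Irf3, 3 for Irf9 and 4 for Irf1 in control medium.

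Over all genes tested, same-numbered libraries did not deviate together (correlations 0.0685, 0.00508 and -0.0406). These correlations cannot show whether a small group of genes does so. Most of the listed ISGF3, IRF3 and IRF7 targets were higher in replicate 1 in every medium, and pairing in them was not tested. With the replicate block 3, 4 and 2 members were called in the 3 comparisons, and 6057, 4382 and 6668 genes. Irf5 is limited by low counts and few libraries, and Irf4 and Irf8 by counts of 0 to 4.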
